A study of Mus musculus with 8 samples.

Results

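Lysosomal genes were followed while 32Dcl3 cells were moved from IL-3 to G-CSF. The set holds 44 genes for lysosomal peptidases, glycan and lipid hydrolases and their cofactors, membrane proteins, the proton pump and the transcription factors Tfeb and Tfe3. A probe set, the group of array probes that reports one transcript, was taken for a gene when the array annotation gave that gene as its single symbol. By that rule 42 of the 44 genes had a probe set, 94 of the 45037 probe sets in all. Cd63, a tetraspanin, and Atp6v0c, the proteolipid of the pump's membrane ring, matched none by the rule and have no value here.

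32Dcl3 is a mouse myeloid progenitor line that depends on IL-3 and matures towards neutrophils in G-CSF. The mock culture carried the empty retroviral vector pMYs-IG and the other culture pMYs-FLAG-ASXL1-MT-IG, a mutant form of ASXL1, a chromatin regulator. Each culture was measured in IL-3 (0 h) and after 2, 6 and 24 h of G-CSF, so that 8 arrays held 1 array per condition and no replicates. Left unstated in the sources used here are the species from which the ASXL1 cDNA came, the number of clones, any withdrawal of IL-3 on the switch to G-CSF, and the use of separate dishes for the time points. Comparisons between time points therefore rest on 1 mock and 1 ASXL1-MT array per time point, and p-values measure the spread that remained between the cultures once time and vector had been fitted. In these bulk samples fewer cells of a type and less RNA per cell cannot be told apart.

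Lysosomes degrade proteins, glycans and lipids with acid hydrolases, and the V-ATPase pumps protons into them to keep the lumen acid. Most hydrolases are made in the endoplasmic reticulum and are carried to lysosomes by mannose 6-phosphate receptors. Many lysosomal genes are under the control of the MiT/TFE transcription factors, which include TFEB and TFE3 and bind a CLEAR element built around an E-box. In neutrophil precursors the lysosomal enzymes share their route with the primary granules.

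The E-box letters were looked for in the promoters because TFEB and TFE3 are members. RefSeq promoter windows of 300 bases, from 250 before to 50 after the start site on GRCm38.p6, were found for 38 of the 44 genes, which have 46 promoters in all. The E-box CACGTG stood in 14 of the 46 windows (30.4%) and in 7.15% of the 32851 windows of all genes. The CLEAR core TCACGTGA, which contains the E-box, stood in 6 of the 46 (13.0%) and in 0.974% of all windows. The letters TTGCGCAA, a site of C/EBP factors, stood in 1 of the 46 (2.17%), that of Ids, and in 0.183% of all. All 3 motifs are palindromes, so that both strands were searched at once. Among windows of members that were higher at 24 h of G-CSF, 4 of 21 (19.0%) held the CLEAR core, and among those of members tested and not higher, 2 of 18 (11.1%). The E-box ran the other way, in 5 of 21 (23.8%) and 7 of 18 (38.9%). The stretches below, 80 bases each with the motif in capitals, are shown because their genes differ in response. Ctsa, Ctsd and Atp6v1a were among the genes that rose at 24 h, Gla rose at 6 h and missed the threshold at 24 h, and Mcoln1 and Lamp1 passed at neither time. Ctsa lies at chr2:164833693-164833772 (plus strand), Ctsd at chr7:142387883-142387962 (minus), Atp6v1a at chr16:44139348-44139427 (minus), Gla at chrX:134601176-134601255 (minus), Mcoln1 at chr8:3500437-3500516 (plus) and Lamp1 at chr8:13159064-13159143 (plus).
Ctsa: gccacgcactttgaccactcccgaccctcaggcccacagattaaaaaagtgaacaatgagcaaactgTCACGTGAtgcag
Ctsd: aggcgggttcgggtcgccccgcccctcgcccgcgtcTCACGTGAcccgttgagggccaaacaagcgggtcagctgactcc
Atp6v1a: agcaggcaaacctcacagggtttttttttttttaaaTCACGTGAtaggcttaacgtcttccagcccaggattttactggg
Gla: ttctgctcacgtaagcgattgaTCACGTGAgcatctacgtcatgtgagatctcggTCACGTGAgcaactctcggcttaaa
Mcoln1: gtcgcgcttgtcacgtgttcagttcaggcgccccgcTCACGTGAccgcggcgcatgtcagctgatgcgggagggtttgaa
Lamp1: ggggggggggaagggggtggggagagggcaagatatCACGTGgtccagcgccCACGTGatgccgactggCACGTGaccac
The capitals mark the CLEAR core in the first 5 stretches and the E-box in that of Lamp1, whose window holds 4 E-boxes, the first at -61 from the start site. The core began 13 bases before the start site in Ctsa, at -99 in Ctsd and at -132 in Atp6v1a. A match shows only that these letters are there, and the letters were found in genes that rose and in genes that did not.

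Values are log2 expression of a probe set relative to its own median over the 8 arrays, so they give differences between arrays and not levels between genes. For each gene 1 probe set was used, that of the highest level as estimated from the number precision of the table, and genes were tested when their second-highest array reached the table's median level. Of the 42 genes 40 passed, 35 of them at an estimated level of 8 or more on the log2 scale. The cysteine endopeptidase Ctsl and the asparaginyl endopeptidase Lgmn were too dim to be tested. Ctsl missed narrowly, at an estimated 5.8 on its second-highest array against a median level of 5.83, and Lgmn had 4.8. Of simulated probe sets 82.0% fell on the correct side of that median level, so the miss of Ctsl cannot be told from a pass. In all 13289 genes were tested. Differences were called at a Benjamini-Hochberg adjusted p of 0.05 in limma, which pools the spread of all 8 arrays with time and vector as terms and is given as log2 difference ± SE.

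No lysosomal gene was called after 2 h of G-CSF. The limma fit called 0 of the 40 and 0% of all genes at 2 h, while 2 members and 1062 of all genes had an unadjusted p under 0.05. The median difference of the members was -0.03, and 0 for all genes. Both 2 h arrays stood above both IL-3 arrays for 4 of the 40 (10.0%, against 18.7% of all genes) and below them for 7 (17.5%, against 19.9%). Neither share of members at 2 h was above that of all genes, and the gap between them was not tested.

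**Figure D1:**
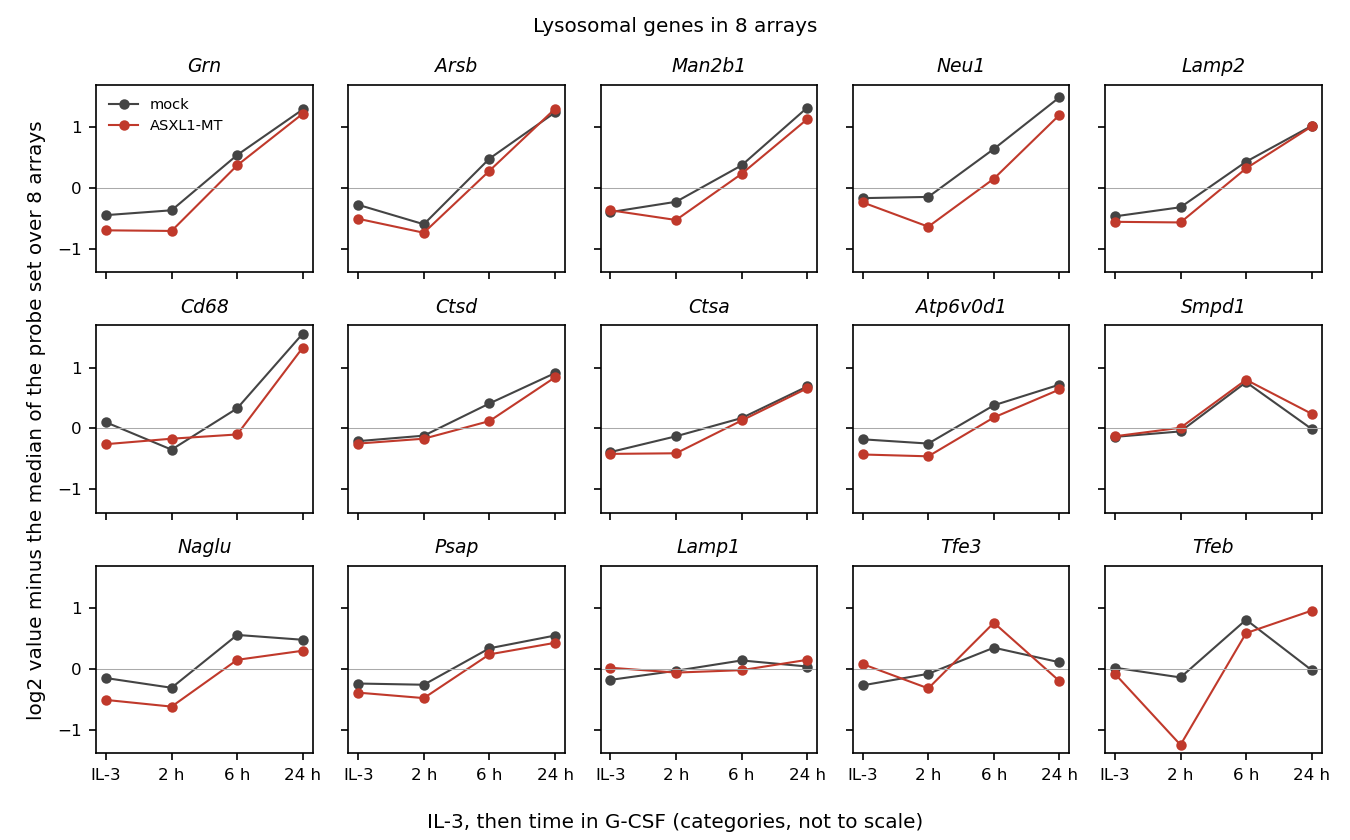
log2 value minus the probe set's own median over the 8 arrays, against condition (IL-3, then 2, 6 and 24 h of G-CSF), for 15 lysosomal genes, with mock in grey and ASXL1-MT in red, 1 array a point and no error bar. Grn, Arsb, Man2b1, Neu1 and Lamp2 read higher at 24 h than at 6 h and higher at 6 h than at 2 h in both cultures, Cd68 between 6 and 24 h, and Smpd1 was highest at 6 h.

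At 6 h of G-CSF members of every enzyme group and of the pump were higher than in IL-3. Of the 40, 16 were called higher and 0 lower, while 9.20% of all genes were called higher and 6.86% lower. The median difference of the members was 0.50, and 0.11 for all genes. Calls were spread over peptidases (3 of 7), glycan and sulfate hydrolases (6 of 13), lipid-linked proteins with progranulin (3 of 8), membrane proteins (1 of 5) and the pump (3 of 5), and neither transcription factor was called. Among the 35 members at a level of 8 or more, 16 (45.7%) were called higher, against 11.9% of genes at that level. Both 6 h arrays stood above both IL-3 arrays for 29 of the 40 (72.5%, against 38.0% of all genes) and below for 3 (7.50%, against 24.6%). These 3 were Ctsz, a cysteine carboxypeptidase, Asah1, acid ceramidase, and Atp6ap1, an accessory pump subunit. The 6 h count fell to 0 without any 1 of the IL-3, 2 h or 6 h arrays of either culture and was 2 without either 24 h array, while the members' median stayed between 0.45 and 0.53. It was 3 with no filter on dim genes and 10 when a gene's probe sets were averaged.

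By 24 h of G-CSF 22 lysosomal genes were higher than in IL-3, led by progranulin, lysosomal hydrolases of glycans and sulfated sugars, Lamp2 and Cd68. The other 18 of the 40 tested did not pass and 0 were called lower, while 14.0% of all genes were called higher and 11.1% lower. The median was 0.65, and 0.09 for all genes. At the level of 8 or more, 21 of the 35 (60.0%) were called higher, against 18.4% of all genes there, and 0 were called lower, against 17.8%. Both 24 h arrays stood above both IL-3 arrays for 31 of the 40 (77.5%, against 36.9% of all genes) and below for 0 (against 28.1%). In mock the median difference from IL-3 was 0.67 at 24 h, and in ASXL1-MT it was also 0.67. At least 0.5 log2 units up were 25 of the 40 in mock (29.1% of all genes) and 25 in ASXL1-MT (29.0%), and at 6 h 19 (24.9%) and 20 (27.1%). The count at 24 h was 0 when any 1 of the 4 arrays compared, mock or ASXL1-MT, in IL-3 or at 24 h, was left out, where limma called 0 of all genes and 3889 to 4092 had an unadjusted p under 0.05, and 20 or 21 when a 2 h or 6 h array was left out. The members' median was between 0.60 and 0.67 in all 8 of these fits. With a gene's probe sets averaged, 14 were called. A fit of every probe set on its own called 1.06% of the 45037 at 24 h, and those of the members among them were 2 each of Man2b1, Arsb, Grn and Lamp2.

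**Figure D2:**
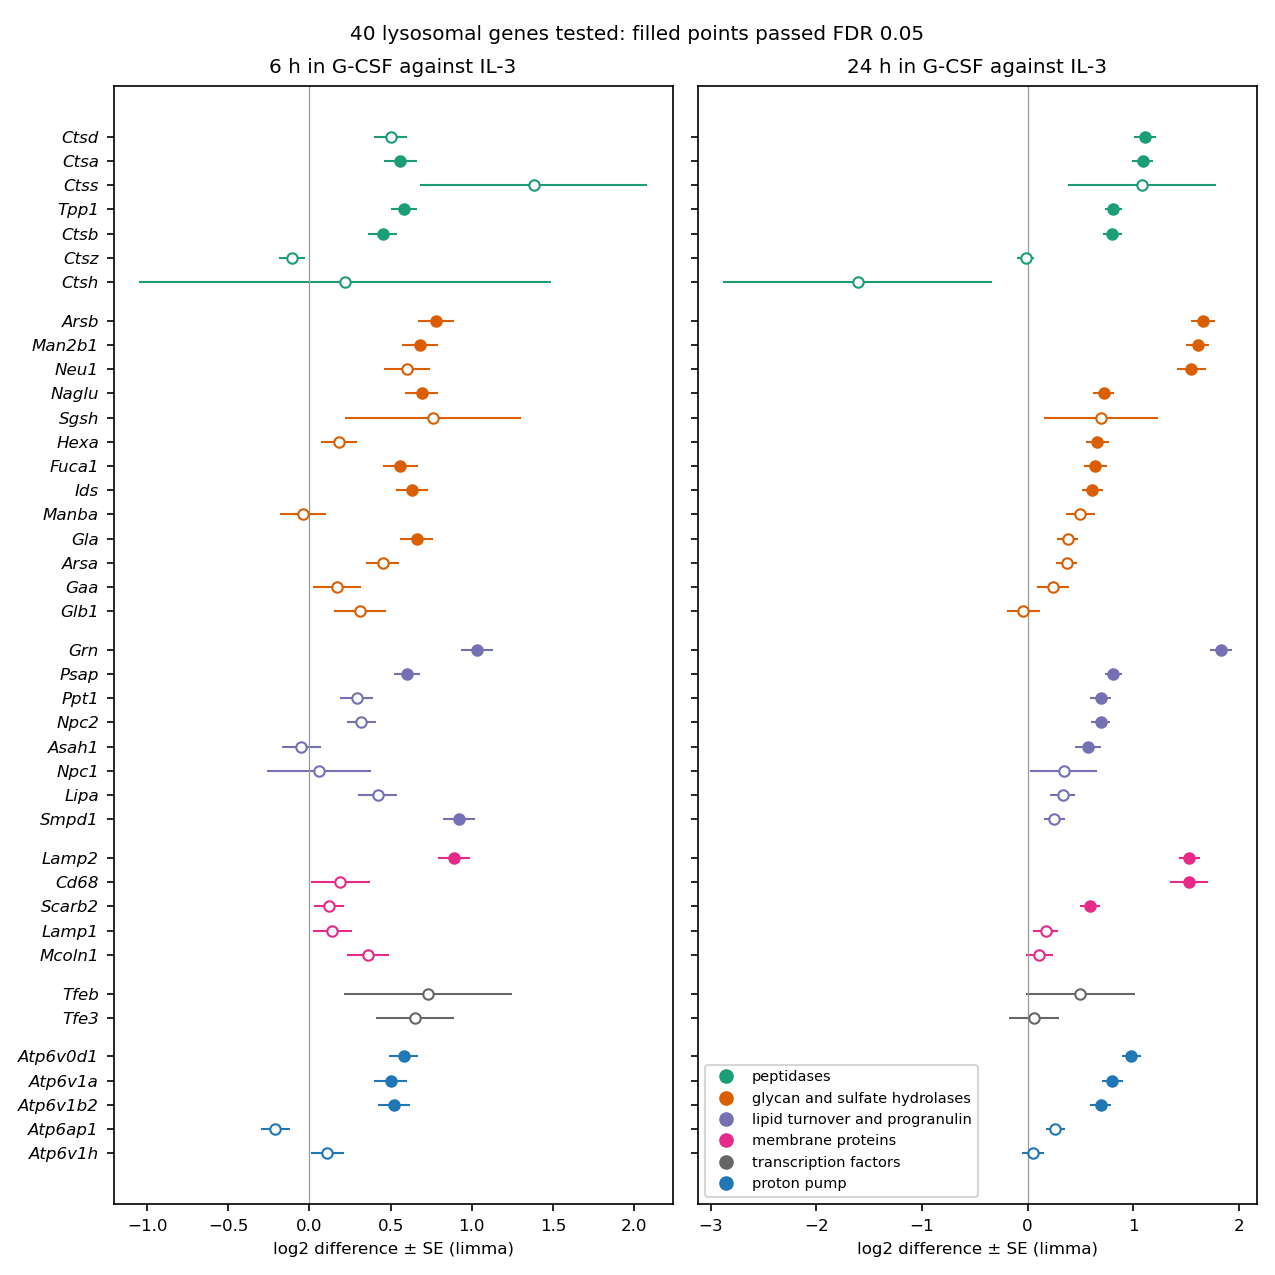
log2 difference ± SE from IL-3, from the limma fit, for the 40 lysosomal genes tested, at 6 h (left) and 24 h (right) of G-CSF, grouped by role, with points filled where the adjusted p was under 0.05. 16 points are filled at 6 h and 22 at 24 h, all of them to the right of 0, and Ctsh, Ctss, Sgsh, Npc1, Tfeb and Tfe3 have the long error bars.

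Among the peptidases, the aspartic protease Ctsd, the carboxypeptidase Ctsa, the tripeptidyl peptidase Tpp1 and the cysteine protease Ctsb rose by 24 h. Ctsd (probe set 1448118_a_at) read -0.21, -0.12, 0.41 and 0.91 in mock at IL-3, 2, 6 and 24 h, and -0.25, -0.17, 0.12 and 0.84 in ASXL1-MT. Both cultures were highest at 24 h, and the 24 h arrays did not overlap the others. The 24 h difference was 1.11 ± 0.10 (adjusted p 0.00895), while 0.50 ± 0.10 at 6 h narrowly missed (0.0502). Ctsa, which protects the galactosidase Glb1 and the sialidase Neu1, read -0.39, -0.13, 0.17 and 0.69 in mock and -0.42, -0.41, 0.13 and 0.66 in ASXL1-MT. It rose by 0.56 ± 0.10 at 6 h (adjusted p 0.0407) and by 1.09 ± 0.10 at 24 h (0.00911). Ctsb read -0.19, -0.15, 0.27 and 0.57 in mock and -0.29, -0.29, 0.15 and 0.57 in ASXL1-MT, a rise of 0.45 ± 0.09 at 6 h (0.0423) and 0.80 ± 0.09 at 24 h (0.0105). Tpp1 was 0.58 ± 0.08 higher at 6 h and 0.81 ± 0.08 at 24 h. Ctsz differed from IL-3 by -0.02 ± 0.08 at 24 h. The other probe set of Ctsa, a dim one, did not rise between IL-3 and 24 h. It went from -0.02 to -0.10 in mock and from 0.02 to -0.34 in ASXL1-MT.

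The remaining cathepsins lay near the filter on dim genes and their arrays scattered widely. Ctss, the cysteine protease of antigen-presenting cells, read -1.04, 0.76, 0.93 and 1.34 in mock and -0.40, -0.78, 0.40 and -0.61 in ASXL1-MT. Only the mock culture was high in G-CSF at all 3 times, and the difference of 1.08 ± 0.70 at 24 h did not pass (adjusted p 0.338). The aminopeptidase Ctsh differed by -1.61 ± 1.27, which rests on -3.80 in the mock array at 24 h. Ctsl, not tested, read 0.09, 1.54, -0.05 and 0.76 in mock and -0.67, -0.12, 0.05 and -1.81 in ASXL1-MT. Lgmn, not tested, was lowest at 24 h in both cultures, at -1.96 in mock and -2.65 in ASXL1-MT.

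Of the 13 hydrolases of glycans and sulfated sugars, 7 rose by 24 h, and Arsb, Man2b1 and Neu1 had the largest differences. Arsb, which removes sulfate from dermatan sulfate, read -0.28, -0.60, 0.48 and 1.24 in mock and -0.51, -0.74, 0.28 and 1.30 in ASXL1-MT (probe set 1429189_at). It was 0.78 ± 0.11 higher at 6 h and 1.66 ± 0.11 at 24 h (adjusted p 0.0069). Man2b1, acid alpha-mannosidase, read -0.40, -0.23, 0.37 and 1.32 in mock and -0.37, -0.53, 0.23 and 1.13 in ASXL1-MT, and rose by 0.68 ± 0.11 at 6 h and by 1.61 ± 0.11 at 24 h (0.00717). Neu1, the lysosomal sialidase, read -0.17, -0.15, 0.64 and 1.49 in mock and -0.24, -0.64, 0.15 and 1.20 in ASXL1-MT. Its 6 h difference of 0.60 ± 0.14 did not pass (0.0648) and its 24 h difference of 1.55 ± 0.14 did (0.00893). On the probe sets used, all 3 genes had their highest array at 24 h in both cultures. Between IL-3 and 24 h the other bright probe set of Arsb went from -0.30 to 1.40 in mock and from -0.63 to 1.42 in ASXL1-MT. The dim probe set of Arsb went from 0.61 to 0.12 in mock and from 0.36 to -0.94 in ASXL1-MT.

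The other 4 glycan hydrolases called at 24 h had smaller differences. Naglu, a heparan sulfate hydrolase, was 0.69 ± 0.10 higher at 6 h and 0.72 ± 0.10 at 24 h, and the alpha-fucosidase Fuca1 was 0.56 ± 0.11 and 0.64 ± 0.11 higher. The beta-hexosaminidase chain Hexa was 0.66 ± 0.11 higher at 24 h (adjusted p 0.0247) and 0.18 ± 0.11 at 6 h (not called). The iduronate sulfatase Ids was 0.63 ± 0.10 higher at 6 h and 0.61 ± 0.10 at 24 h on the probe set used, at which it was called. Its other 5 probe sets, all dim, gave -0.81 to 0.47 at 24 h, and their mean with the first was -0.06 (adjusted p 0.882). The call for Ids therefore rests on 1 bright probe set. The alpha-galactosidase Gla was called at 6 h, at 0.66 ± 0.10, and had 0.38 ± 0.10 at 24 h (adjusted p 0.0634). The arylsulfatase Arsa had 0.37 (0.0666) and the beta-mannosidase Manba 0.50 (0.0789) at 24 h. Glb1 (-0.04), the alpha-glucosidase Gaa (0.24) and the sulfamidase Sgsh (0.69 ± 0.54) did not pass.

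Progranulin, Grn, a secreted glycoprotein that is also delivered to lysosomes, had the largest difference of all members at 24 h. It read -0.45, -0.37, 0.54 and 1.29 in mock and -0.70, -0.71, 0.37 and 1.22 in ASXL1-MT (probe set 1448148_at), a rise of 1.03 ± 0.10 at 6 h (adjusted p 0.0145) and 1.83 ± 0.10 at 24 h (0.00659). The difference equals a 3.55-fold change at 24 h. Both 24 h arrays stood above both 6 h arrays, and these above both IL-3 arrays. The 3 probe sets of Grn gave 1.33 to 1.83. Psap, the precursor of the saposins that help lipid hydrolases, rose by 0.60 at 6 h and by 0.81 ± 0.08 at 24 h. The thioesterase Ppt1 (0.69 ± 0.10), the cholesterol carrier Npc2 (0.69 ± 0.09) and acid ceramidase Asah1 (0.57 ± 0.12, adjusted p 0.0425) were called at 24 h and not at 6 h.

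Acid sphingomyelinase, Smpd1, had another course. It read -0.14, -0.05, 0.76 and -0.01 in mock and -0.13, 0.01, 0.80 and 0.24 in ASXL1-MT, so that both cultures peaked at 6 h. The 6 h rise was 0.92 ± 0.10 (adjusted p 0.0175), the 24 h difference from IL-3 0.25 ± 0.10 (0.155), and the difference between 24 and 6 h -0.67 ± 0.10 (0.0486). It was the 1 member called lower between 6 and 24 h. The lipase Lipa (0.33) and the cholesterol exporter Npc1 (0.34 ± 0.32) were not called at 24 h.

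Among the membrane proteins Lamp2, Cd68 and Scarb2 rose and Lamp1 did not pass the test at any time. Lamp2, a major lysosomal membrane glycoprotein, read -0.47, -0.32, 0.43 and 1.02 in mock and -0.56, -0.57, 0.32 and 1.01 in ASXL1-MT (probe set 1416344_at), a rise of 0.89 ± 0.10 at 6 h (adjusted p 0.0172) and 1.53 ± 0.10 at 24 h (0.00666). Its 4 probe sets gave 1.35 to 1.53 at 24 h. Lamp1, the related glycoprotein, read -0.18, -0.03, 0.14 and 0.04 in mock and 0.02, -0.06, -0.02 and 0.15 in ASXL1-MT, and differed by 0.17 ± 0.12 at 24 h (0.381). Cd68, macrosialin, read 0.10, -0.35, 0.33 and 1.56 in mock and -0.26, -0.17, -0.10 and 1.33 in ASXL1-MT. It lay near its IL-3 level up to 6 h (0.19 ± 0.18, not called) and was 1.53 ± 0.18 higher at 24 h (0.0126), and it is the 1 called member below a level of 8. Scarb2, the sorting receptor of glucocerebrosidase, was 0.59 ± 0.09 higher at 24 h on the probe set used and 0.10 on its other one. The calcium channel Mcoln1 differed by 0.11.

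Of the 5 proton pump subunits tested 3 rose, and the other 2 were not called. Of all genes tested, 9.20% were called higher at 6 h and 14.0% at 24 h. Atp6v0d1, a V0 subunit, read -0.18, -0.25, 0.38 and 0.72 in mock and -0.43, -0.46, 0.18 and 0.64 in ASXL1-MT, a rise of 0.58 ± 0.09 at 6 h (adjusted p 0.0286) and 0.98 ± 0.09 at 24 h (0.00849). The V1 subunits Atp6v1a and Atp6v1b2 rose by 0.80 ± 0.10 and 0.69 ± 0.10 at 24 h, with both called at 6 h too, at 0.50 and 0.52. Atp6v1h differed by 0.05 and Atp6ap1 by 0.26 at 24 h, where neither was called.

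The transcription factors did not pass at any time. Tfeb, which drives lysosomal genes, read 0.02, -0.14, 0.81 and -0.02 in mock and -0.08, -1.25, 0.59 and 0.96 in ASXL1-MT on a dim probe set, a difference of 0.73 ± 0.52 at 6 h (adjusted p 0.406) and 0.50 ± 0.52 at 24 h (0.547). Tfe3 read -0.27, -0.08, 0.35 and 0.11 in mock and 0.08, -0.32, 0.76 and -0.20 in ASXL1-MT, 0.65 ± 0.24 at 6 h (0.152) and 0.06 ± 0.24 at 24 h (0.893). Both 6 h arrays of each factor stood above both IL-3 arrays, as was so for 29 of the 40 members and 38.0% of all genes. The array reports RNA, and the activity of these factors, which is controlled in large part by their place in the cell, was not measured.

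**Figure D3:**
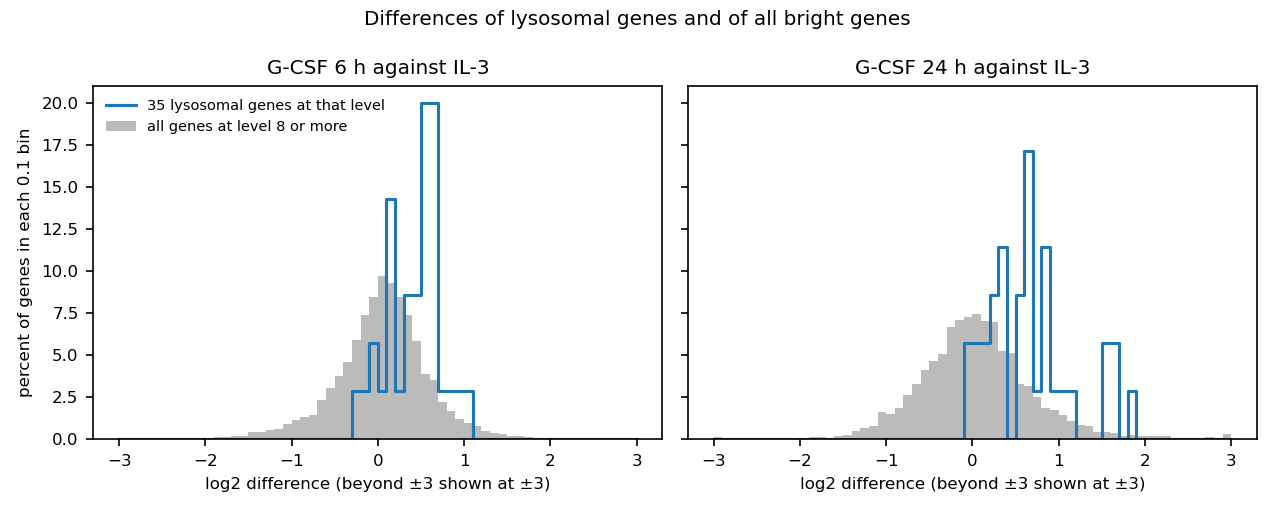
Percent of genes in each 0.1 bin of the log2 difference from IL-3 at 6 h (left) and 24 h (right) of G-CSF, for all 7547 genes at an estimated level of 8 or more (grey bars) and the 35 lysosomal genes at that level (blue line), with no error bar. The lysosomal genes lie mainly to the right of the centre of the grey bars, and at 24 h none of the 35 is called lower while 21 are called higher.

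Between 6 and 24 h 6 of the 40 rose and 1, Smpd1, fell, while 5.02% of all genes were called, 2.79% higher and 2.23% lower. At the level of 8 or more, 5 of the 35 (14.3%) were called higher, against 3.92% of genes there, and 1 (2.86%) lower, against 3.43%. The 6 were Cd68 (1.33 ± 0.18, adjusted p 0.046), Neu1 (0.95 ± 0.14, 0.0486), Man2b1 (0.92 ± 0.11, 0.0409), Arsb (0.88 ± 0.11, 0.0418), Grn (0.80 ± 0.10, 0.0434) and Lamp2 (0.63 ± 0.10, 0.0493). The median of the members was 0.22, and 0 for all genes. Both 24 h arrays stood above both 6 h arrays for 22 of the 40 (55.0%, against 27.5% of all genes) and below them for 6 (against 28.9% of all genes), which were Glb1, Gla, Smpd1, Lipa, Mcoln1 and Tfe3. All 7 calls lay close to the threshold, and the count was 0 without any 1 of the 8 arrays, when limma called 0 of all genes and 2398 to 3291 had an unadjusted p under 0.05. The median stayed between 0.20 and 0.27 in these fits. With all 8 arrays the count was 17 with a filter on the mean level, 18 with a filter at the 70th percentile of levels and 18 with a variance trend. It was 3 with robust eBayes, 2 with a gene's probe sets averaged, and 0 without a filter on dim genes or after a second quantile normalization. Naglu, Fuca1 and Ids had differences of 0.03, 0.08 and -0.01 between 6 and 24 h, so that their 6 h and 24 h arrays do not differ beyond their spread.

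No lysosomal gene was called between the cultures, and most lay slightly lower in ASXL1-MT. Each vector was carried by 1 culture, whose 4 time points stand in for replicates in the fit and in the counts below. An effect of mutant ASXL1 and any other lasting difference between the cultures cannot be told apart. The limma fit called 0 of the 40 and 0% of all genes, with 5 members and 859 of all genes at an unadjusted p under 0.05, and the smallest adjusted p of any gene was 0.276. The median of ASXL1-MT minus mock was -0.10, and 0 for all genes. At IL-3, 2, 6 and 24 h, 28, 32, 31 and 25 of the 40 were lower in ASXL1-MT, against 49.0%, 54.1%, 47.4% and 49.4% of all genes. ASXL1-MT was lower at all 4 times for 15 of the 40 (37.5%), against 8.57% of all genes, and higher at all 4 for 1 (2.50%), Smpd1, against 8.23%. Of the 35 at a level of 8 or more, 15 (42.9%) were lower at all 4 times, against 10.6% of genes at that level, and 1 (2.86%) higher, against 8.61%. The differences of Arsa and Smpd1 in IL-3 round to 0. The count was 16 (40.0%, against 8.93%) with each array centred on its median, when 0 were higher at all 4, and 9 (22.5%, against 7.64%) after a second quantile normalization, with 2 higher, which moved the members' median to -0.07. The 11 neutrophil markers tested had a median of -0.29 in the same contrast, with 0 called, and their part in the lysosomal values was not tested.

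**Figure D4:**
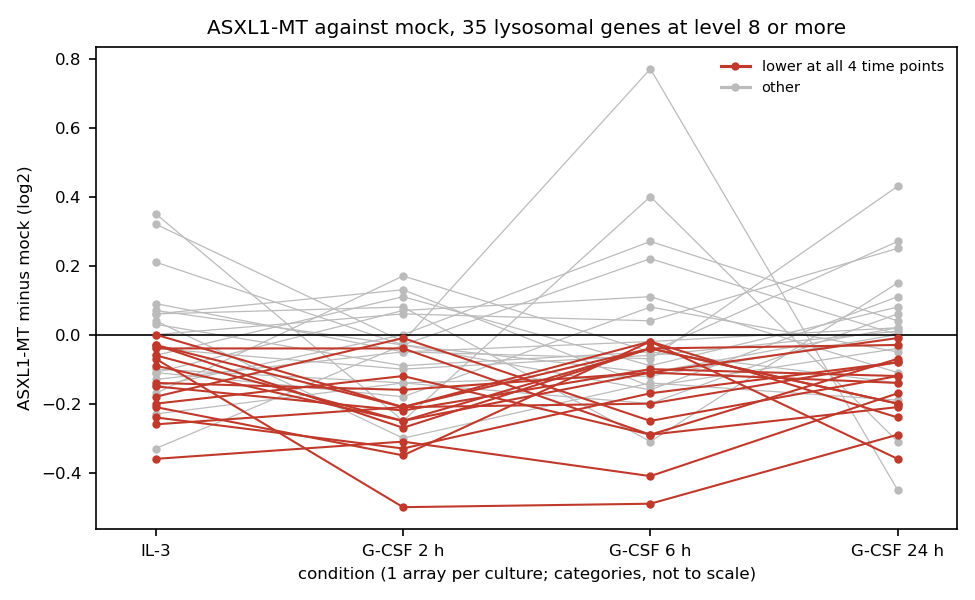
ASXL1-MT minus mock, in log2 units, at each of the 4 conditions for the 35 lysosomal genes at an estimated level of 8 or more, 1 array per culture and no error bar, with the 15 genes lower at all 4 in red. Most red lines lie between 0 and -0.4, and Neu1 and Naglu have the lowest fitted differences, -0.34 and -0.31.

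The 15 came from every group except the transcription factors. They were Ctsa, Ctsd and Tpp1 among the peptidases, Hexa, Naglu, Neu1 and Arsa among the glycan hydrolases, Asah1, Ppt1, Psap and Grn, the membrane proteins Lamp2 and Scarb2, and the pump subunits Atp6v0d1 and Atp6v1a. Naglu differed by -0.36, -0.31, -0.41 and -0.17 at IL-3, 2, 6 and 24 h, a fitted -0.31 ± 0.07 with an unadjusted p of 0.0098 and an adjusted p of 0.716 in limma. Neu1 differed by -0.07, -0.50, -0.49 and -0.29 (fitted -0.34 ± 0.10, unadjusted p 0.0274, adjusted 0.716 in limma). Scarb2 had a fitted -0.20 ± 0.06, Atp6v0d1 -0.19 ± 0.06 and Grn -0.21 ± 0.07. None passed after adjustment. Whether the difference between the cultures at 24 h departed from that at the other times was tested with an extra term. The added term for the ASXL1-MT array at 24 h called 0 members and 0% of all genes in limma, with 1 member and 773 of all genes at an unadjusted p under 0.05. That member was Ctsh (4.07 ± 0.65, unadjusted p 0.00745, adjusted p 0.684), a dim gene.

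Other lysosomal and related genes, from lists chosen with earlier results of these data known, were counted for comparison at 24 h. Of all genes tested, 14.0% were called higher and 11.1% lower at that time, with a median difference of 0.09. Of 24 other lysosomal hydrolases tested 12 rose and 3 fell (median 0.48), with Ctso (1.59), Arsg and Man2b2 (1.05 each) highest among the calls and Ctsc, the protease that activates the granule serine proteases and is named here after its value was seen, down by 1.00. Of 31 other lysosomal membrane proteins 10 rose and 1 fell (median 0.42), among them the cystine exporter Ctns (2.06) and the sialic acid exporter Slc17a5 (1.14). Of 19 other pump genes 7 rose and 0 fell (median 0.20), with Dmxl2 (1.34), Tcirg1 (1.29) and Atp6v0a1 (1.10). Of 30 sorting genes 10 rose and 3 fell (median 0.23), with Lyst (3.73) highest, a gene for the size of lysosome-related granules.

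Of 19 mTORC1 and MiT/TFE control genes 3 rose and 1 fell (median 0.02). Fnip2 (1.02) and the MiT factor Tfec (0.68) rose and Rraga, a Rag GTPase, fell by 0.68. Of 33 autophagy genes 16 rose and 1 fell (median 0.43), including Bnip3 (1.84), Wipi1 (1.54) and Atg101 (1.41). At 6 h 13 of the 33 were called higher and 0 lower, against 9.20% and 6.86% of all genes. Of 7 inhibitors of cathepsins 5 rose and 0 fell (median 1.14), led by Stfa2l1 (4.06), Serpinb6a (1.27) and Cstb (1.17). At 24 h, 14.0% of all genes were called higher and 11.1% lower.

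Markers of several blood cell types moved at 24 h with the lysosomal genes, when 14.0% of all genes were called higher and 11.1% lower. Of 3 erythroid markers tested 1 rose and 1 fell (median 0.09), and of 2 lymphoid and 2 fibroblast markers 0 were called. Of 11 neutrophil markers tested 10 rose (median 2.83), of 10 progenitor markers 8, and of 9 mast cell, basophil and eosinophil markers 5 rose and 1 fell. Camp, the neutrophil marker not called (1.82 ± 0.75), was dim and had its highest arrays at 24 h (1.48 in ASXL1-MT and 2.22 in mock). Camp therefore passed the filter through a 24 h array. Of 14 monocyte and macrophage markers on the array 8 passed the filter on dim genes and were tested, and 3 rose. The 3 were Csf1r (1.65 ± 0.08), Mpeg1 (5.46 ± 0.92) and Ccr2 (4.58 ± 0.96). Ccr2 had its highest arrays at 24 h (3.46 in ASXL1-MT and 4.96 in mock), so that it passed the filter through a 24 h array. Not called were Vcam1 (2.43 ± 0.71), C1qb (0.26 ± 1.1), Adgre1 (-0.10 ± 0.09), Fcgr1 (-0.46 ± 0.15) and Siglec1 (-1.49 ± 1.18). Fcgr1, at a bright level, was called lower at 6 h (-0.96 ± 0.15, adjusted p 0.0315 in limma). The mean level of the 14 monocyte and macrophage markers on the array was 5.10 to 5.98 in the 6 arrays before 24 h and 6.23 and 6.54 at 24 h. The macrophage markers C1qa, C1qc and Marco had estimated levels of 1.6, 2.4 and 1.8, Msr1 was also dim at 3.7, and Adgre1, at a bright level, differed between IL-3 and 24 h by less than 0.2 in each culture. For neutrophil markers the mean level was 8.11 to 8.75 before 24 h and 10.66 and 10.81 at 24 h. The part of these cell types in the lysosomal rise was not tested. Asxl1 itself was lower in ASXL1-MT at all 4 times on its 2 bright probe sets, as were 10.6% of genes at a level of 8 or more. On its other, dim probe set Asxl1 was higher at all 4 times. The dim values were -0.02, 0.02, 0.29 and 0.25 in ASXL1-MT and -1.02, -0.72, -0.54 and 0.09 in mock. This settles nothing about the transgene because the species of its cDNA is not given.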

How the data were processed

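RNA of the mock and ASXL1-MT cultures, each at 4 time points, was hybridised to 8 Affymetrix mouse arrays, and the labels' design text gives MAS 5.0 for image capture. RMA stands in the submitters' processing notes, with no version stated. The authors deposited log2 values, each probe set centred on its median over the 8 arrays; the log base was not stated and was taken as 2. The design text names the 430A array, while the table holds 45037 probe sets. Levels before centring were estimated from the number precision of the values; in 8000 simulated probe sets the median error was 0.661 log2 units. Probe sets were named from the platform annotation: 34945 had 1 symbol, 932 several and 9160 none.

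One fit of time and vector was made with limma 3.58.1 in R 4.3.3 (3 residual degrees of freedom; 2 with the 24 h term), with Benjamini-Hochberg adjustment over 13289 genes, and was tested on simulated data. Members named with full statistics were those past the threshold, at most the 5 largest per role, with Tfeb, Tfe3, Ctsb, Ctsd, Ctsl and Ctss in every case; up to 3 were named from each other pathway list. Statistics of other members that missed the threshold, Ctsc and the cell markers named were added after their values were seen. Alternatives were another choice of probe set, filter, scaling and variance prior, and leaving out each array. The members and lists were chosen with earlier results of these data known. Array number, 1 per condition, limits the precision.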

Additional observations from a re-analysis of the deposited data

Results flagged for a closer look

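On the probe sets used, the dim cathepsins Ctsh and Ctsl moved in opposite directions in the cultures between IL-3 and 24 h of G-CSF. Ctsh changed by -4.03 in mock and by 0.82 in ASXL1-MT, where the fit's added 24 h term gave an adjusted p of 0.684 in limma. Ctsl changed by 0.67 in mock and by -1.14 in ASXL1-MT. Its other probe set, also dim, was lower at 24 h than in IL-3 in both cultures, going from 0.81 to 0.44 in mock and from -0.44 to -1.77 in ASXL1-MT. Ctsl was below the filter on dim genes, and its difference was not tested.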

How the results depend on the processing

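The labels carry no replicate numbers, and each condition has 1 array. The vector term already sets each time comparison within its culture, and without it the counts were 14 at 6 h, 22 at 24 h and 8 between 24 and 6 h, of which 13, 21 and 6 were genes also called with it. With a gene's probe sets averaged the counts of called members were 10 at 6 h, 14 at 24 h and 2 between 24 and 6 h, against 16, 22 and 7. Without a filter on dim genes they were 3 at 6 h and 0 between 24 and 6 h. That last count was 17 with the filter on mean level, 18 with the filter at the 70th percentile, 18 with a variance trend, 3 with robust eBayes and 0 after a second quantile normalization. Leaving out 1 array gave 0 to 2 at 6 h, 0 to 21 at 24 h and 0 to 0 between 24 and 6 h. The counts at 2 h, between the cultures and for the 24 h term were 0 in the main analysis and in all settings run, with no fit of that term without either 24 h array. Ids at 24 h turned to -0.06 under the same averaging. The cause of these moves was not tested. The bright-gene comparison and the scalings of the 4-time count between cultures were chosen after seeing the data.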
